A study of Mus musculus with 4 samples.

Results

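The genes described here were *Car3*, *Pck1*, *Aqp7*, *Cox8b*, *Retn*, *Timp4* and *Hp*, 7 of the 470 genes counted with Xenium probes on sections of mouse vagal ganglia, the nodose and jugular ganglia that hold the sensory neurons of the vagus nerve. Xenium decodes fluorescent probes on a tissue section and assigns each transcript to a segmented cell. All 3 sections (5 μm, fixed in paraformaldehyde and embedded in paraffin) were labelled as from adult male C57BL/6 mice, which were given 50 μL of *Alternaria alternata* extract at 25 μg/mL into the nose on days 0, 3, 6 and 9, with tissue taken 16 hours after the last dose. No control section was analysed here, so nothing below compares treated with untreated mice, and the sources used here do not give how many mice the sections represent. The 7 genes were chosen with results of these counts known, after a clustering of the same cells had given a cluster led by *Pck1* and *Car3*. They were thus selected on their levels in cells without neuronal transcripts, and those levels and the joint presence of the genes are given below as a description.

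Fat cells store triglyceride and release it as fatty acids and glycerol when fuel is needed. They take up fatty acids through Cd36, run their gene programme under the nuclear receptor Pparg, and secrete proteins that act on other tissues. Nerves and ganglia of the neck lie within connective and fat tissue, and brown fat, which burns lipid for heat, also occurs there. The members cover several of these roles. *Car3* (chr3:14863512-14872523 of GRCm38, plus strand) encodes carbonic anhydrase 3, abundant in fat and in slow skeletal muscle. *Pck1* (chr2:173153048-173159273, plus strand) encodes the cytosolic phosphoenolpyruvate carboxykinase, which feeds glyceroneogenesis in fat and gluconeogenesis in liver. *Aqp7* (chr4:41033074-41048139, minus strand) encodes the glycerol channel of fat cells. *Cox8b* (chr7:140898945-140900446, minus strand) encodes a subunit of cytochrome c oxidase known from brown fat and from heart and skeletal muscle. *Retn* (chr8:3655770-3660110, plus strand) encodes resistin, a protein secreted by white fat cells in mice. *Timp4* (chr6:115241892-115252205, minus strand) encodes an inhibitor of matrix metalloproteinases, and *Hp* (chr8:109575128-109579172, minus strand) encodes haptoglobin, the haemoglobin-binding plasma protein made by liver and fat.

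Promoter sequences in the RefSeq table on GRCm38.p6 (250 bases before to 50 after a gene's start) were found for 5 of the 7 members, namely *Pck1*, *Aqp7*, *Cox8b*, *Retn* and *Timp4*. Each was searched on both strands for AGGTCA, the half-site of nuclear receptors, for its longer form TNAAGGTCA, for TTGCNNAA, a C/EBP core, and for the core of a MEF2 site. AGGTCA was found in 1 of the 5, *Aqp7*, against 16.3% of 32851 promoters in the table. The other motifs were found in 0 of the 5, against 1.28% of all promoters for TNAAGGTCA, 10.8% for TTGCNNAA and 3.69% for the MEF2 core, and TNAAGGTCA contains AGGTCA. The sequences of *Aqp7* (chr4:41047913-41048212, minus strand), of *Pck1* (chr2:173152823-173153122, plus strand), and of *Cox8b* (chr7:140900397-140900696, minus strand) and *Retn* (chr8:3655520-3655819, plus strand), the pair compared below, are shown 5′ to 3′. Capitals mark AGGTCA on the reverse strand, read here as TGACCT, and the other 3 hold no match.
Aqp7: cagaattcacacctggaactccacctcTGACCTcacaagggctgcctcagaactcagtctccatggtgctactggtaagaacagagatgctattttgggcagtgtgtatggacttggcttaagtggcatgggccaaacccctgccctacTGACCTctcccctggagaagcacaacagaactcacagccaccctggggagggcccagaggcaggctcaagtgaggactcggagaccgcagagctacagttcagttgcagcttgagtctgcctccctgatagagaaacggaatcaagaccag
Pck1: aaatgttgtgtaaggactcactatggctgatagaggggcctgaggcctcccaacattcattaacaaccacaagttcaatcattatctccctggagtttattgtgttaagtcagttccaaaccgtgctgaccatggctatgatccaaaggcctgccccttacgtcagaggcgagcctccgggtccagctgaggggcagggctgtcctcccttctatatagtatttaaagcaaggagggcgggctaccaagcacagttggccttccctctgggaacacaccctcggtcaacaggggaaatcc
Cox8b: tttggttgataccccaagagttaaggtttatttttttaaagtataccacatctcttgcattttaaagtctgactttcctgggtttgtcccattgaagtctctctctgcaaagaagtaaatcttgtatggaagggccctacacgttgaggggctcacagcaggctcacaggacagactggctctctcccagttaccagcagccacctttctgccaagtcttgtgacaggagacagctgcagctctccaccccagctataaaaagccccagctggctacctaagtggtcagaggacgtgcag
Retn: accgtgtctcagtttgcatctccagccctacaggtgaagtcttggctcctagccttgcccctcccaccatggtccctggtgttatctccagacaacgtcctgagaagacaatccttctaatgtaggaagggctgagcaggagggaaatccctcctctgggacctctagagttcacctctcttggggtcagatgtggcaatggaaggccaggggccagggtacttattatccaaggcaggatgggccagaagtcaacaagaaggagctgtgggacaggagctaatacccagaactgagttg
In *Aqp7* the matches began 223 and 101 bases before the start used for this window. Another *Aqp7* window, from a different start (chr4:41048087-41048386, not shown), held AGGTCA once, 49 bases before that start. A match is a run of letters and was not tested as a binding site.

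The 3 sections held 2716 to 3858 cells, and 1287, 1304 and 1897 cells had at least 10 transcripts and were kept. No cell name was shared between sections (0 names). A cell was called neuronal where its transcripts of *Snap25*, *Tubb3*, *Scg2* and *Gap43*, 4 genes of neurons, summed to 2 or more, and non-neuronal otherwise. This gave 2723 non-neuronal cells with a median of 15 transcripts and 1765 neuronal cells with medians of 61 to 75 in the sections, so neuronal cells were read more deeply. Levels are given in CPM, the count of a gene over all counts of the cells in question, scaled to 1000000. Levels of different genes are not compared, since each gene has its own probes.

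The 7 genes made up 22.6%, 21.7% and 18.1% of all transcripts in the non-neuronal cells of sections 1, 2 and 3. In neuronal cells they made up 0.0349%, 0.0354% and 0.0648%. Section 3 was thus lowest in the non-neuronal cells and highest in the neuronal cells, and the ranges lay far apart. The share depended on the neuronal sum close to its limit of 1. Member transcripts were 22.3% of the total in the 2452 cells with a sum of 0, 3.19% in the 271 cells with a sum of 1, 0.457% in the 153 cells just outside with a sum of 2, and 0.0658% in the 114 cells with a sum of 3.

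Among the enzymes, *Car3* had 1752, 1729 and 2337 transcripts in the non-neuronal cells of sections 1, 2 and 3 and 6, 6 and 19 in the neuronal cells. *Pck1* had 657, 664 and 990 in the non-neuronal cells and 1 in the neuronal cells of each section. Neither overlapped between the kinds of cells, at 121879 ± 17689 (SD, n = 3 sections) CPM against 162 ± 77.5 for *Car3* and 47742 ± 4041 against 17.5 ± 3.79 for *Pck1*. The glycerol channel gene *Aqp7* had 76, 68 and 123 transcripts in non-neuronal and 1, 3 and 3 in neuronal cells. The respiratory chain gene *Cox8b* had 60, 62 and 93 in non-neuronal and 0, 0 and 1 in neuronal cells. Neither gene had a neuronal level within reach of its non-neuronal level in any section (5428 ± 426 against 38.7 ± 17.7 CPM for *Aqp7* and 4431 ± 326 against 4.41 ± 7.64 for *Cox8b*).

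Of the secreted proteins, *Hp* had 351, 378 and 565 transcripts in non-neuronal and 0, 0 and 9 in neuronal cells. *Timp4* had 16, 13 and 22 in non-neuronal and 2, 1 and 1 in neuronal cells. Both were again higher in the non-neuronal cells of every section, *Hp* at 26605 ± 1752 against 39.7 ± 68.7 CPM and *Timp4* at 1054 ± 160 against 24.3 ± 14.8. *Retn* was the exception in size. It had 8, 10 and 16 transcripts in non-neuronal and 7, 8 and 15 in neuronal cells, nearly equal numbers of transcripts, which at the lower total of the non-neuronal cells came to 686 ± 61.7 against 164 ± 30.1 CPM. The sections did not overlap for *Retn* either, but a transcript was found in 27 non-neuronal and 27 neuronal cells, and as a share of cells the order turned with depth. Unthinned, 0.98% of non-neuronal and 1.5% of neuronal cells had a *Retn* transcript, and after each cell was thinned to 10 transcripts the shares were 0.53% and 0.16%.

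**Figure D1:**
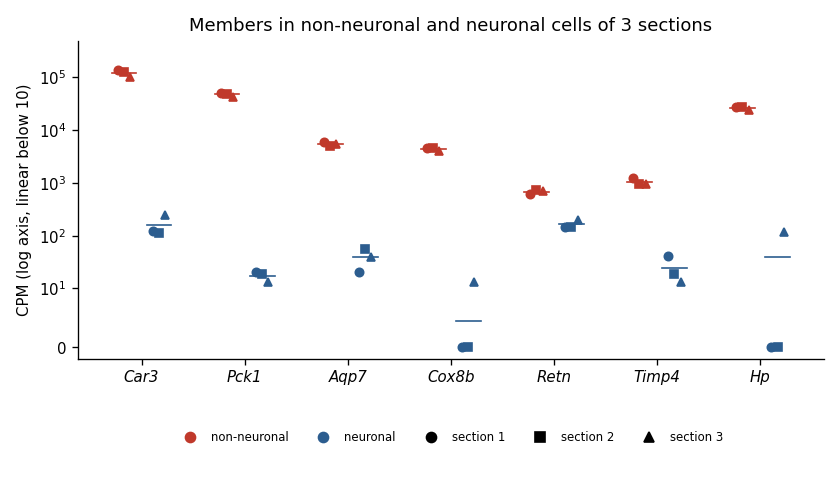
Level of each member in CPM (log axis, linear below 10) in non-neuronal (red) and neuronal (blue) cells, with a symbol for each of the 3 sections and a line at their mean. The groups are apart for all 7 genes, least for *Retn*, at 686 against 164 CPM on average.

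The sums per section were set against each other in a single fit over all genes (edgeR quasi-likelihood test, section as a block, 4 sorting genes left out). All 7 members passed the filter on low counts and were higher in the non-neuronal cells in 3 of 3 sections at a Benjamini-Hochberg adjusted p below the 0.05 threshold, beside 42.7% of the 248 genes tested that were higher and 39.5% that were lower. Since the genes were chosen for this pattern, their count is no test of it. The log2 differences were 10.47 (SE 0.23) for *Pck1*, 8.65 (SE 0.14) for *Car3*, 8.26 (SE 0.50) for *Cox8b*, 8.20 (SE 0.24) for *Hp*, 6.25 (SE 0.37) for *Aqp7*, 4.61 (SE 0.53) for *Timp4* and 1.26 (SE 0.41) for *Retn*. By size of the difference, 6 members stood among the first 10 genes and *Retn* was at position 82. The sizes rest on few neuronal transcripts and moved with the setting, from 7.02 to 11.18 for *Pck1*, 5.18 to 10.74 for *Cox8b* and 7.0 to 12.29 for *Hp*. Without section 3, which held all 9 neuronal transcripts of *Hp* and the single one of *Cox8b*, they were 12.19 for *Hp* and 9.61 for *Cox8b*, no longer bounded by a neuronal count. The other genes among the first 10 were *C3*, the central complement component, *Cd36*, *Slc27a2*, a fatty acid transport protein, and *Dpt*, a matrix protein of fibroblasts. The median over all genes tested was 0.25 with TMM scaling and 0.69 with library size alone, which gave 127 higher and 78 lower genes where the main fit gave 106 and 98, and all 7 members were higher under both. For *Retn* the call was lost with DESeq2 (log2 1.12, adjusted p = 0.0735) and without the filter (log2 0.77, adjusted p = 0.107).

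Gene lists set the members beside their pathways in the same fit. Of 10 genes of lipid handling, 7 were tested, 5 were higher in non-neuronal cells and 0 lower, with a median log2 difference of 3.90 where the median of all genes was 0.25. *Cd36* differed by 6.76 (SE 0.18) and *Slc27a2* by 4.79 (SE 0.44). Of 10 mitochondrial genes, 8 were tested, 2 were higher and 3 lower, with a median of -0.33, where *Cox8b* was higher by 8.26.

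Several members are also known from muscle, liver or neutrophils, so the lists of those cells were read in the cells that carried the members. Non-neuronal cells were put in classes by the marker list with the most transcripts, at least 2, with no member used, and those for which *Cd36* and *Pparg* led were a class of 525 cells with 13705 transcripts. In this class the 14 muscle genes gave 17 transcripts in all, between 853 and 1794 CPM in the sections, and *Actn3*, *Myoz1*, *Myoz2* and *Tnnc1* were among the 7 genes at 0. The 7 muscle genes found were *Pygm*, *Ttn*, *Trdn*, *Myf6*, *Sypl2*, *Hrc* and *Mylk3*. The muscle sum of 1254 ± 486 CPM overlapped with that in neuronal cells (1285 ± 130) and lay below that in all non-neuronal cells (3405 ± 722). The muscle list was itself among the sorting lists and led in a class of 4 cells. A low muscle sum in the *Cd36* and *Pparg* cells is thus partly set by the sorting, and a muscle source of the members was not tested. The 12 liver genes gave 30 transcripts from 6 genes (*Ambp*, *Gc*, *Hrg*, *Kng2*, *Slc10a1* and *Uox*), with *Hpx*, *Tat* and *Serpina10* among the 6 at 0. Their sum of 2091 ± 593 CPM overlapped with that in all non-neuronal cells (1919 ± 197) and lay above that in neuronal cells (291 ± 144). The 11 neutrophil genes gave 5 transcripts, between 0 and 513 CPM, from *Csf3r*, *Stfa2l1* and *Pglyrp1*, with *Mmp8*, *Mmp9*, *Mpo* and *Ctsg* among the 8 at 0. Their sum of 330 ± 286 CPM overlapped with that in neuronal cells (520 ± 58.5) and lay below that in all non-neuronal cells (1592 ± 528).

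By class, *Car3* was at 263596 ± 17905 CPM in the *Cd36* and *Pparg* cells (243278 to 277067 in the sections), and its lowest section there was above its highest section in every other class. It was at 139146 ± 28110 in the 845 unassigned cells and 121971 ± 8749 in the 51 mural cells, which overlapped with each other. Endothelial cells (76193 ± 27626, 100 cells) and macrophages (42305 ± 7515, 49 cells) overlapped too, and fibroblasts (16846 ± 7622, 380 cells) and glia (1602 ± 2030, 769 cells) followed, the glia overlapping with the neuronal cells. The order was alike for *Pck1*, at 106640 ± 3110 in the *Cd36* and *Pparg* cells, 52205 ± 7360 in unassigned cells, 7873 ± 2387 in fibroblasts and 169 ± 293 in glia. *Hp* was at 58570 ± 1282 in the *Cd36* and *Pparg* cells and 4442 ± 1158 in fibroblasts, but its sections in the 51 mural cells ran from 19305 to 128205 and overlapped with both neighbours in the order. *Aqp7* (12733 ± 2264) and *Cox8b* (9853 ± 422) in the *Cd36* and *Pparg* cells overlapped with the mural cells and with no other class. *Cox8b* had 0 transcripts in the 769 glial cells, where a count of 0 allows up to 255 CPM.

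*Retn* did not follow this order. It was at 1173 ± 430 CPM in the unassigned cells, 785 ± 424 in the *Cd36* and *Pparg* cells, 625 ± 636 in fibroblasts, 364 ± 631 in endothelial cells, 164 ± 30.1 in neuronal cells and 159 ± 154 in glia. Every pair of neighbours in this order overlapped over the sections, so neighbours could not be ranked at this depth. Further apart, the unassigned cells (739 to 1600 CPM in the sections) and the *Cd36* and *Pparg* cells (513 to 1273) lay above the neuronal cells (144 to 198). The glia were at 0 to 307, on 0, 1 and 1 transcripts in sections 1, 2 and 3. The 0 in section 1 allows up to 1165 CPM, so an order against glia could not be read. The *Cd36* and *Pparg* cells had 2, 2 and 8 *Retn* transcripts in sections 1, 2 and 3. Of the 34 *Retn* transcripts in non-neuronal cells, 12 lay in the *Cd36* and *Pparg* cells, where *Car3* had 3559 of 5818. *Timp4*, at 2205 ± 413 in the *Cd36* and *Pparg* cells and 821 ± 310 in unassigned cells, overlapped with its neighbours in every step of its order down to the neuronal cells.

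The make-up of the member transcripts was then compared between classes. *Car3* was 57.6% of the member transcripts in the *Cd36* and *Pparg* cells (Wilson 95% interval 56.4 to 58.8, of 6178 transcripts), 59.6% in unassigned cells, 55.8% in endothelial cells, 57.7% in mural cells and 54.3% in fibroblasts (47.5 to 61.0, of 208). *Pck1* was 23.6%, 22.6%, 24.5%, 20.5% and 23.6% in the same classes. *Hp* was between 12.7% and 14.9% in all of them. In endothelial cells, mural cells and fibroblasts the interval of each of these shares held the share of the *Cd36* and *Pparg* cells. The rarer genes were less even, on 4 transcripts each. *Retn* was 1.92% in fibroblasts (0.750 to 4.84) and *Timp4* 1.92% in fibroblasts and 1.86% in mural cells (0.726 to 4.68), where *Timp4* was 0.469% in the *Cd36* and *Pparg* cells (0.327 to 0.673). Macrophages (70.9% *Car3*, 57.9 to 81.2, of 55 transcripts) and glia (72.2%, 56.0 to 84.2, of 36) rested on few transcripts. In neuronal cells the 85 member transcripts were divided otherwise, with *Retn* at 35.3% (26.0 to 45.9) where it was 0.194% in the *Cd36* and *Pparg* cells (0.111 to 0.339), and *Pck1* at 3.53% (1.21 to 9.87). *Retn* in neuronal cells was 41.2%, 42.1% and 30.6% of member transcripts in the sections, so it was high in each. These intervals cover counting error only. Transcripts of a neighbour can fall inside the outline drawn for a cell, and their part in these shares was not tested.

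**Figure D2:**
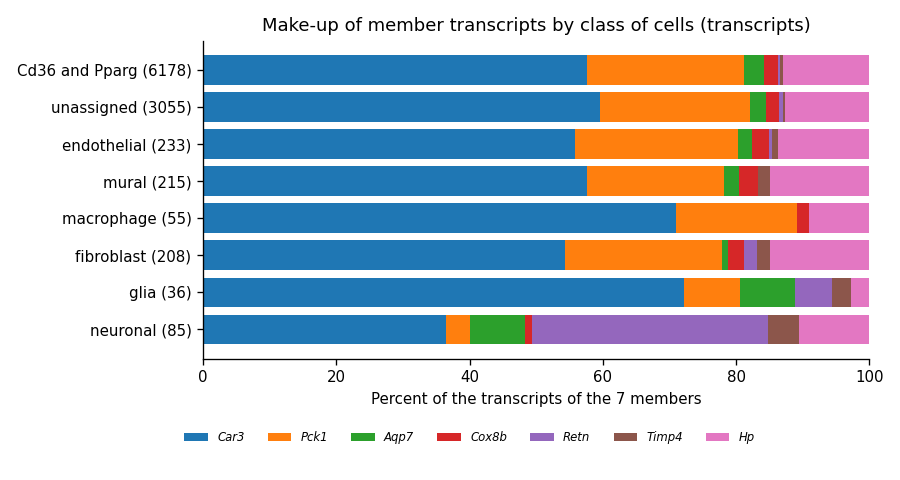
Percent of the transcripts of the 7 members that each gene made up (x axis) in each class of cells (y axis), with the number of member transcripts in brackets. The *Cd36* and *Pparg*, unassigned, endothelial, mural and fibroblast bars are alike for *Car3* (54.3% to 59.6%), *Pck1* and *Hp*, whereas *Retn* takes 35.3% of the 85 transcripts in neuronal cells.

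Within the non-neuronal cells, the members occurred together. A transcript of at least 3 of the 7 genes was found in 25.8%, 24.9% and 22.2% of the non-neuronal cells of sections 1, 2 and 3 (24.3% ± 1.89, SD, n = 3 sections), and of at least 1 in 40.7%, 38.3% and 33.3%. In all, 1723 of 2723 cells had no member, 115 had 1, 234 had 2, 384 had 3, 216 had 4, 51 had 5 and 0 had 6 or 7. Median totals, member transcripts included, were 14 for cells with 0 members, 13 for 1 member, 21 for 3 and 29 for 5. Cells were kept on this total, so member transcripts helped a cell to be kept. *Car3* was found in 938 cells, with 6.20 transcripts per positive cell and up to 31, *Pck1* in 795 with 2.91, *Hp* in 637 with 2.03, *Aqp7* in 221, *Cox8b* in 191, *Timp4* in 45 and *Retn* in 27. The last 4 genes had 1.13 to 1.26 transcripts per positive cell, so they were mostly seen as single transcripts. Few positive cells lacked every other member, 1.73% for *Hp*, 1.89% for *Pck1*, 2.09% for *Cox8b*, 2.71% for *Aqp7* and 6.93% for *Car3*, and more did so for *Timp4* (15.6% of 45) and *Retn* (25.9% of 27).

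For each of the 21 pairs, cells with both genes were set against the number expected within a section and a range of depth (0, 1 to 4, 5 to 9, 10 to 19 and 20 or more transcripts of other genes), and an odds ratio was pooled over these strata. Cells were kept on a total that counts the members. Every kept cell with fewer than 10 other transcripts therefore held a member, and the expected numbers depend on this. The odds ratio was above 1 in 3 of 3 sections for 18 pairs, with a median of 5.88 over the 21. *Car3* and *Pck1* were together in 770 cells where 391 were expected (odds ratio 159, 147 to 194 in the sections), and 96.9% of *Pck1* cells had *Car3* where 34.4% of all non-neuronal cells did. Without the ranges of depth, 277 cells with this pair were expected (odds ratio 327). *Car3* and *Hp* were together in 615 cells (302 expected, odds ratio 76.8). *Cox8b* cells had *Car3* in 183 of 191 cells (87.7 expected, odds ratio 35.7), and *Aqp7* cells in 212 of 221 (103 expected, odds ratio 32.7). The lowest odds ratios among pairs above 1 in every section were 2.32 for *Cox8b* and *Timp4* (8 cells, 4.06 expected) and 2.57 for *Pck1* and *Retn* (15 cells, 9.19 expected). *Aqp7* with *Timp4* and *Retn* with *Timp4* were together in 8 cells and 1 cell, with a section at 0 for each. The remaining pair, *Cox8b* and *Retn*, was seen together in 0 cells.

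Among cells with *Cd36* or *Pparg* transcripts the pairs lay closer to expectation. In the 569 non-neuronal cells with 2 or more transcripts of *Cd36* or *Pparg*, 548 had *Car3* and 491 had *Pck1*. At such shares the observed number for a pair with either gene has little room above the expected number. The median odds ratio over the 21 pairs was 1.60, with 17 finite and the rest counted as highest. Of all 21 pairs, those without a finite ratio included, 10 were above 1 in every section and 2 below. *Car3* and *Pck1* were together in 483 of these cells where 473 were expected (odds ratio 10.3, 4.35 to 17.1 in the sections). *Aqp7* and *Cox8b* were together in 36 where 35.6 were expected (odds ratio 1.02), where the odds ratio over all non-neuronal cells was 3.92. *Hp* was with *Cox8b* in 96 (91.2 expected, odds ratio 1.29) and with *Aqp7* in 113 (110 expected, odds ratio 1.17). The difference between the cell sets was not tested.

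**Figure D3:**
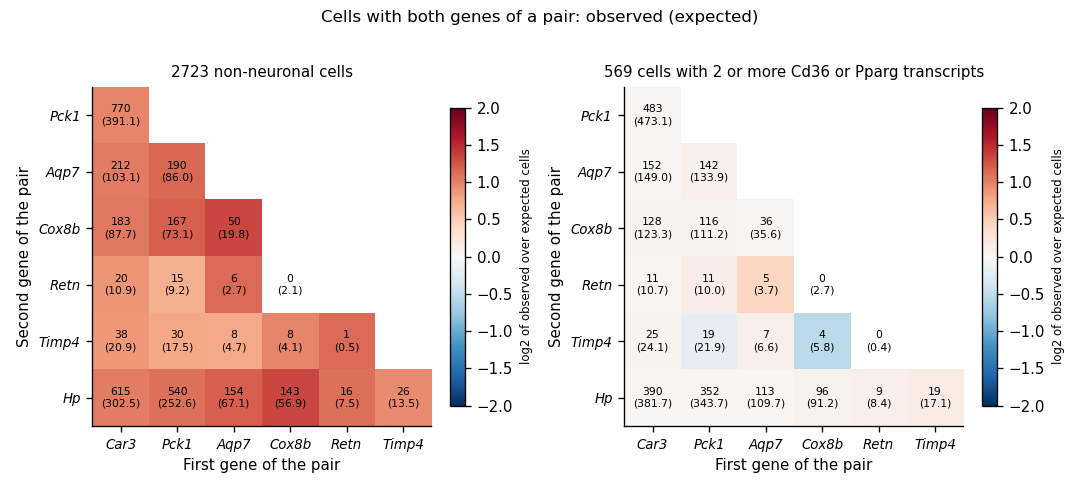
Number of cells with both genes of a pair, with the number expected at matched depth and section in brackets, in all 2723 non-neuronal cells (left) and in the 569 with 2 or more *Cd36* or *Pparg* transcripts (right). Colour is the log2 of observed over expected, and pairs seen in 0 cells are white. Nearly every pair on the left is above expectation, and *Cox8b* and *Retn* are in 0 cells together. On the right most pairs lie near expectation, where pairs with *Car3* or *Pck1* have little room above it.

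Across the non-neuronal cells of a section, the gene outside the 7 whose level followed *Car3* most closely was *Cd36* (Pearson r = 0.66 of log-scaled counts, mean of 3 sections, 0.61 to 0.70, over 744 to 1227 cells that share a section and its depth). *Cd36* was first also for *Pck1* (0.58), *Hp* (0.49), *Aqp7* (0.29) and *Cox8b* (0.25). *C3* and *Pparg* were the next closest for *Car3* (0.48 and 0.39), *Pck1* (0.38 and 0.39) and *Hp* (0.42 and 0.28). For *Retn* the closest gene was *Rbp2* (0.15, but -0.01 in the lowest section) and for *Timp4* it was *Ctla4* (0.14, again -0.01 in the lowest section). *Retn* with *H2-K1* (0.10, 0.08 to 0.11) and *Timp4* with *Cd36* (0.11, 0.09 to 0.14) were above 0 in each section but as weak, and in sparse counts none of these values is read as a pattern.

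*Cox8b*, known from brown fat and muscle, and *Retn*, known from white fat, were then compared as the markers of a pair of cell sets. The 191 *Cox8b* cells (54, 54 and 83 in the sections) and the 27 *Retn* cells (7, 7 and 13) had 0 cells in common. At their shares and depths 2.15 cells with both were expected, fewer than the 3 that a count of 0 allows, so over these cells their separation could not be read at this depth. Among the 970 cells with *Car3*, *Pck1* or *Aqp7*, 20 of them with *Retn*, the expected number was 3.96, above that limit. The observed number was again 0, which was not tested, and these cells are chosen on members. Among the 569 cells with 2 or more *Cd36* or *Pparg* transcripts 2.68 were expected, and 2.86 in cells with at least 20 transcripts. Both lie under the limit, so no separation is read. The median cell had 24 transcripts among *Cox8b* cells and 23 among *Retn* cells.

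*Car3* was found in 96.3%, 96.3% and 95.2% of *Cox8b* cells and in 100%, 71.4% and 61.5% of *Retn* cells of sections 1, 2 and 3. *Retn* cells were thus higher in section 1 and lower in the others, and the ranges overlapped. *Pck1* was found in 83.3%, 90.7% and 88.0% of *Cox8b* cells and in 57.1%, 57.1% and 53.8% of *Retn* cells, lower in the *Retn* cells of every section with no overlap. Pooled, *Pck1* was in 87.4% of *Cox8b* cells (Wilson 95% interval 82.0 to 91.4) and 55.6% of *Retn* cells (37.3 to 72.4), and in 80.9% of the 758 cells with *Car3* or *Pck1* and neither marker, a set that its own choice of genes holds high. The lower share in *Retn* cells was not seen among the 569 cells with 2 or more *Cd36* or *Pparg* transcripts, where *Pck1* was in 11 of 11 *Retn* cells and 116 of 128 *Cox8b* cells. *Hp* was in 74.9% of *Cox8b* cells (68.3 to 80.5), 59.3% of *Retn* cells (40.7 to 75.5) and 61.6% of cells with neither. *Aqp7* was in 26.2% (20.5 to 32.8) and 22.2% (10.6 to 40.8) of *Cox8b* and *Retn* cells and *Timp4* in 4.19% and 3.70%. *Cd36* was in 81.2% and 66.7% and *Pparg* in 33.0% and 18.5%, again with overlapping intervals.

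**Figure D4:**
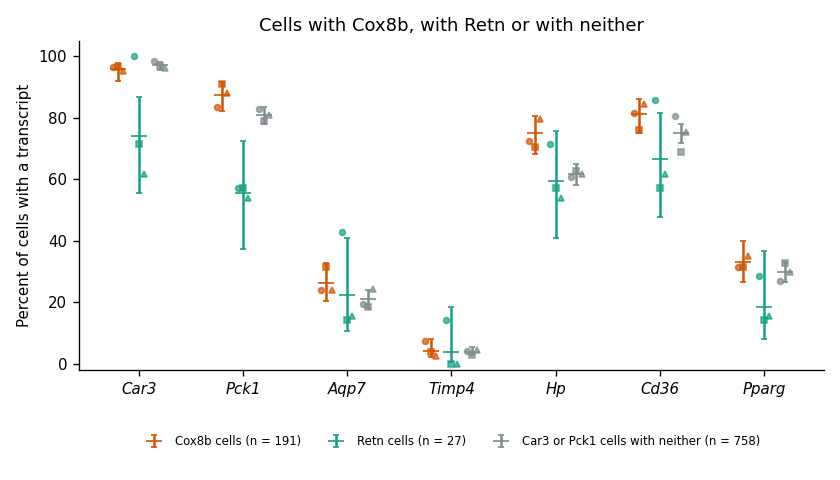
Percent of cells with a transcript of each gene among *Cox8b* cells (orange), *Retn* cells (green) and cells with *Car3* or *Pck1* and neither marker (grey). Bars across are pooled shares with Wilson 95% intervals (counting error only), and small symbols are sections 1 (circle), 2 (square) and 3 (triangle). *Pck1* is in 87.4% of *Cox8b* and 55.6% of *Retn* cells, and the *Retn* intervals are wide throughout, resting on 27 cells.

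In levels, scaled to all transcripts but those of *Cox8b* and *Retn*, *Pck1* was at 103928, 139288 and 103769 CPM in *Cox8b* cells and 77922, 61350 and 39267 in *Retn* cells. The sets did not overlap. *Car3* (271897 ± 17374 against 272660 ± 45462) and *Hp* (67771 ± 3243 against 68478 ± 21079) differed by less than the spread over sections. *Aqp7* was at 13425 ± 1514 against 10284 ± 7977 and *Timp4* at 1891 ± 1237 against 2164 ± 3749, on 6 transcripts and 1 transcript in the *Retn* cells. *Cd36* was at 94108, 71158 and 90909 CPM in *Cox8b* cells and 51948, 30675 and 62827 in *Retn* cells, with no overlap. *Pparg* ran from 14383 to 20843 against 6135 to 12987, on 6 transcripts in the *Retn* cells. In the edgeR fit below neither passed (log2 0.40, adjusted p = 0.278 for *Cd36*, and 0.72, adjusted p = 0.376 for *Pparg*). The lipid handling list gave 140045 to 170732 CPM against 73620 to 123377. *Ppargc1a*, a coactivator that drives mitochondrial genes in brown fat, was in 13.1% of *Cox8b* cells (9.03 to 18.6), 11.1% of *Retn* cells (3.85 to 28.1) and 11.9% of cells with neither.

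The edgeR fit on the sums of the sets could test 12 genes, since the *Retn* cells held 154, 163 and 382 transcripts. Higher in *Cox8b* cells was 1 gene (8.33% of those tested), *Pck1*, by 0.68 on the log2 scale (SE 0.25, adjusted p = 0.0455, higher in 3 of 3 sections). Lower were 2 genes (16.7%), *H2-K1*, a classical MHC class I heavy chain, by -1.06 (SE 0.18, adjusted p = 6.6e-05) and *C3* by -0.88 (SE 0.26, adjusted p = 0.0329), each in 3 of 3 sections. *H2-K1* was at 54010, 62074 and 55432 CPM in *Cox8b* cells and at 103896, 98160 and 83770 in *Retn* cells, with no overlap, and at 54686 ± 6117 in cells with neither. *C3* was at 32733, 21953 and 28825 CPM in *Cox8b* cells and at 38961, 24540 and 49738 in *Retn* cells, lower in each section but with overlapping ranges. Of the members, 4 were tested, and *Car3* (-0.38, SE 0.33), *Aqp7* (0.26, SE 0.73) and *Hp* (-0.35, SE 0.20) did not pass. The sizes in this fit depend on the scaling, with a median over the 12 genes of 0.23 with TMM and 0.59 with library size alone. *Timp4* was not tested. The calls were fragile, on 27 *Retn* cells. With any 1 section left out 0 genes were called, in a fit with few samples, while the log2 differences were -0.78 to -1.19 for *H2-K1*, 0.47 to 1.16 for *Pck1* and -0.43 to -1.06 for *C3*. Among the 569 cells with 2 or more *Cd36* or *Pparg* transcripts, with these 2 genes left out, 0 of 6 genes tested were called. The differences there were -0.31, 0.57 and -0.26. *H2-K1* also lost its call after thinning to 10 transcripts (-0.66, adjusted p = 0.273), and *C3* turned in sign in 1 of 15 alternatives and lost its call in 13, among them library size alone (-0.55, adjusted p = 0.173), limma (-0.40, adjusted p = 0.497) and DESeq2 (-0.96, adjusted p = 0.0951).

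Transcripts of other cell types were counted in both sets, with no test. Of the *Cox8b* cells, 121 were in the *Cd36* and *Pparg* class, 53 unassigned and 0 glia. The rest were 6 endothelial cells, 5 fibroblasts, 5 mural cells and 1 macrophage. Of the *Retn* cells, 10, 11 and 2 were in the *Cd36* and *Pparg* class, unassigned and glia, with 3 fibroblasts and 1 endothelial cell. The glia list gave 4 transcripts in *Cox8b* cells (3 of 5 genes, 426 to 1446 CPM) and 10 in the *Retn* cells (2 of 5 genes, 0 to 17588 CPM, with *Gfap* and *Sox2* among those at 0). The fibroblast list gave 8944 to 10920 CPM in *Cox8b* cells (13 of 13 genes) and 12346 to 30151 in *Retn* cells (18 transcripts, 7 of 13 genes, with *Dpt*, *Pi16* and *Mfap4* at 0). The neuron list gave 3833 to 6240 CPM (10 of 12 genes) and 0 to 15075 (5 of 12, with *Scn10a* and *P2rx3* among those at 0). This list holds the 4 sorting genes, whose sum was 1 or less in both sets by the rule. The ranges of the glia and neuron lists overlapped, as did those of the endothelial, macrophage, mural and liver lists. Those of the fibroblast list did not, but rested on 2, 4 and 12 transcripts in the *Retn* cells of sections 1, 2 and 3. The part of these lists in the differences of *Pck1*, *H2-K1* and *C3* was not tested. The muscle list gave 7 transcripts in *Cox8b* cells and 0 in *Retn* cells. In *Cox8b* cells 4 of its 14 genes were found (*Pygm*, *Myf6*, *Sypl2* and *Hrc*), with *Actn3*, *Myoz1*, *Ttn* and *Tnnc1* among those at 0. The neutrophil list gave 2 and 1, with *Mmp8*, *Mmp9*, *Mpo* and *Ctsg* at 0 in both.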

How the data were processed

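Xenium counts of 3 sections of vagal ganglia were used. Decoding and segmentation were done by the authors, and the deposited table holds whole-number counts of 470 genes in 9785 cells, with no normalization. The prefix of each column name gave its section (0 columns unmapped). Xenium Ranger and Seurat are named for downstream work, and the thresholds for cells are not given in the sources used here. Not used here were the lung section, the deposited metadata and the positions of cells.

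The 7 members and 11 gene lists were chosen with earlier results of these data known. Cells with at least 10 transcripts were kept, no doublet caller was run, and counts were summed per section. Tests used edgeR 4.0.16 in R 4.3.3 (quasi-likelihood, TMM, filterByExpr, section as a block, Benjamini-Hochberg at 0.05 over all genes tested). The sums of a section come from the same tissue and are therefore paired by construction. P-values measure only the spread between sections, which may be technical. The genes or markers that split the cells were left out of tests and library sizes. Sums held 12846 to 22807 transcripts for non-neuronal cells, 39110 to 59815 for neuronal cells and 154 to 2255 for the *Cox8b* and *Retn* cells. Wilson 95% intervals and the limit of 3 counts for a count of 0 cover counting error only. Correlations used the natural log of 1 plus counts scaled to 22 transcripts per cell, and thinning used seed 1.

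Named genes were the members, the 3 genes most correlated with each, the first 10 each way in each fit (those lower in non-neuronal cells are not printed) and examples from the lists. *Ppargc1a*, and the list genes given at 0, were picked after values were seen. Tests were checked on simulated sums: for non-neuronal against neuronal cells, 94.3% of tested genes with a planted log2 change of 2 and 59.2% of those with 1 were recovered, with 4 false calls among 129 unchanged genes. For *Cox8b* against *Retn* cells few planted genes could be tested, of which 3 of 4 with a change of 2 and 1 of 1 with a change of 1 were recovered, and 0 of 10 unchanged genes were called. Alternatives were DESeq2 1.42.0, limma 3.58.1 on log2(CPM + 1), other scaling, filters, cell limits and sums of the neuronal genes, thinning, no block and each section left out. Positions are from GENCODE on GRCm38, matched by the panel's gene identifiers, and promoters from RefSeq on GRCm38.p6. Other values used Python 3.11.15, numpy 2.4.6, scipy 1.17.1 and pandas 2.3.3.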

Additional observations from a re-analysis of the deposited data

How the results depend on the processing

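In non-neuronal against neuronal cells, 172 to 246 genes were called under the 12 alternatives (204 in the main setting), 185 to 208 without 1 section, and all 7 members kept their direction in each. With no replicate block, the 2 sums of a section not being paired, 208 genes were called.

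*Cox8b* cells against *Retn* cells was the weak comparison. Against 3 genes, of which 1 a member, 0 genes and 0 members were called in cells with at least 20 transcripts, with a neuronal sum of 0, in cells with 2 or more *Cd36* or *Pparg* transcripts, with a library size without the members, and without each section, where 0 to 3 genes had an unadjusted edgeR p under 0.05. There was 1 gene with DESeq2 and with at least 2 transcripts of a marker, neither a member, and 1 after thinning to 10. With no replicate block 2 genes and 0 members were called, and without the filter 3 of 255 genes, 2 of them members. Library size alone called 2 higher and 1 lower where the main setting called 1 and 2. *Pck1* was higher in *Cox8b* cells under all 16 alternatives (log2 0.47 to 1.62) and past the threshold in 6, and *H2-K1* lower in all 16 (-1.54 to -0.16) and past it in 7, while *C3* was past it in 1 of 15 (-1.06 to 0.0043). Some differences were reversed, though only *Car3* without the filter passed the threshold (adjusted p = 0.00791). *Hp* was reversed with at least 2 transcripts of a marker (0.038), in cells with 2 or more *Cd36* or *Pparg* transcripts (0.030), with limma (0.030), without the filter (0.54) and after thinning (0.19). *Car3* was reversed with library size alone (0.0038), limma (0.0066) and no filter (0.54), and *C3* without the filter (0.0043). *Aqp7* was reversed without section 2 (-0.09) and section 3 (-0.19), where it was 1.11 without section 1. With library size alone the median over the 12 genes tested was 0.59, where it was 0.23 with TMM, so the sizes depend on the scaling. Some settings leave fewer genes and cells. The cause of the reversals was not otherwise tested.

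Cells with both *Cox8b* and *Retn* numbered 0 under all 11 alternatives, with 0.051 to 3.96 expected. The share of non-neuronal cells with at least 3 members, 24.3%, moved with depth, to 8.40% in all cells, 53.5% in cells with at least 20 transcripts, 12.6% after thinning to 10 and 9.43% where a member needed 2 transcripts. It was 26.6% with a neuronal sum of 0 and 22.0% with a sum of up to 3.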
